A study of Homo sapiens with 4 samples.

Results

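Target genes of the tumour suppressor p53, with genes of the DNA damage response, were followed in GATA2/eGFP+ endothelial cells derived from H1, a human embryonic stem cell line. The genes are a list of 31 symbols looked up in the deposited count table. Of these, 30 were found among 19912 gene identifiers, and all 30 passed the low-count filter that left 11380 genes. The antisense transcript TNFRSF10A-AS1 was not analysed here. The 4 libraries were 2 of GFI1-KO cells, in which the gene for the transcriptional repressor GFI1 was knocked out, and 2 of WT cells. Both genotypes share the H1 background and the endothelial differentiation, and a GATA2 reporter marked the cells studied. The altered part of GFI1 is not in the labels, nor how many knockout clones were used or whether replicates came from separate differentiations. The p-values therefore measure only the spread between these libraries, which may be technical.

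The protein p53 is a transcription factor that is held at a low level by the ubiquitin ligase MDM2. DNA damage and other stresses release it, and it then activates genes that stop the cell cycle, repair DNA, alter redox metabolism or start apoptosis, as well as genes such as MDM2 that switch it off again. Many of its targets are also transcribed at a basal level in unstressed cells. GFI1 is a zinc-finger repressor that silences endothelial genes as blood cells emerge from hemogenic endothelium.

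GFI1-KO replicate 1 was shallow, with 146584 counts, against 2332621 in GFI1-KO replicate 2, 2239214 in WT replicate 1 and 2417410 in WT replicate 2. Levels are given in CPM, each library's counts set to a common total with TMM scaling. Intervals are exact 95% Poisson intervals; without molecular identifiers they express counting error and nothing else. As a one-sided 95% limit, a count of 0 allows up to 3 counts. That is 19.9 CPM in GFI1-KO replicate 1 and 1.26 to 1.34 CPM in the other 3 libraries. The exact interval of a count of 0 reaches further, to 24.4 CPM in GFI1-KO replicate 1. Of the label checks, GFI1 itself had 3 counts in GFI1-KO replicate 1, equal to the one-sided limit given for a count of 0. It was at 19.9 and 19.6 CPM in GFI1-KO libraries 1 and 2, against 58.5 and 58.3 CPM in WT libraries 1 and 2 (log2 fold change -1.57, edgeR adjusted p = 0.0215). It did not pass with DESeq2 (adjusted p = 0.443) or in the fits without WT replicate 1 (0.137), without WT replicate 2 (0.0960) and lacking GFI1-KO replicate 2 (0.271), while its log2 fold change in those fits stayed between -1.58 and -1.54. GATA2, the gene of the reporter, fell to 139 and 124 CPM in GFI1-KO, against 293 and 252 CPM in WT (-1.09, adjusted p = 0.0376), a call that did not hold with DESeq2 (0.129) or without WT replicate 1 (0.446), among others. All 11 endothelial marker genes had counts in all 4 libraries, and their summed level was 7916 and 9355 CPM in GFI1-KO against 6615 and 6769 CPM in WT. The leukocyte gene PTPRC, 6 globin genes and the pluripotency gene NANOG had 0 counts in all 4 libraries. Other markers of these lists were present: the leukocyte gene LAPTM5 was at 185 and 231 CPM in GFI1-KO, against 230.0 and 217 CPM in WT, and the pluripotency gene DPPA4 at 79.5 and 95.3 CPM in GFI1-KO, against 119 and 115 CPM in WT. LCP1, SPN and ZFP42 had lower levels, up to 41.5 CPM. In bulk RNA, fewer cells that express a gene and less RNA per cell cannot be told apart.

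To show the sequence by which p53 recognises its targets, the regions around the members' starts were searched for the p53 consensus element, a pair of abutting decamers. Promoter windows from RefSeq (GRCh38.p14), from 250 bases before to 50 after a start, matched 25 members; RRM2B, PHLDA3, TNFRSF10B, GADD45A and TP53INP1 had no window. A window was counted when it held 20 bases with at most 3 mismatches to the consensus and with the fixed C and G of both decamers in place. The consensus is its own reverse complement, so both strands are covered. Of the 25 members, 8 had such a stretch (32%), against 1.37% of 27305 gene symbols with a window. With at most 2 mismatches 4 had it, against 0.359%. The members were listed as p53 targets, so an excess over all genes was set by that choice and is no result of these libraries. The 8 are shown with the matched 20 bases in capitals, 5′ to 3′ on the gene's strand, with up to 5 flanking bases:
DDB2: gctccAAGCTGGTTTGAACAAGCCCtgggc
AEN: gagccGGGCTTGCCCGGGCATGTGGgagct
FAS: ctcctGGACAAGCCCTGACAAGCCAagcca
MDM2: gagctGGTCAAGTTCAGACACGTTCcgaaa
FDXR: ggcccGGGCAGGAGCGGGCTTGCCCtgcgg
GDF15: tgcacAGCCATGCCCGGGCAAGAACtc
PMAIP1: gtcggGAGCGTGTCCGGGCAGGTCGcgctc
SESN1: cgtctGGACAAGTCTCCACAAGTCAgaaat
The DDB2 stretch (chr11:47214969-47214988, plus strand) had 1 mismatch. Those of AEN (chr15:88621306-88621325, plus), FAS (chr10:88991309-88991328, plus) and MDM2 (chr12:68808923-68808942, plus) had 2 mismatches. Those of FDXR (chr17:74872996-74873015, minus), GDF15 (chr19:18386186-18386205, plus), PMAIP1 (chr18:59899811-59899830, plus) and SESN1 (chr6:109009018-109009037, minus) had 3. A match describes these letters and does not show that p53 was bound. The other 17 members with a window held no such stretch in it, which says nothing of sites elsewhere in the gene.

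Between GFI1-KO and WT cells, 0 of the 30 members passed an adjusted p of 0.05 (edgeR's quasi-likelihood test, Benjamini-Hochberg over 11380 genes). Over all genes the same test called 0.773% higher and 0.185% lower. The members' fold changes lay below 0 in 24 of 30, with a median log2 fold change of -0.46, against 52.5% of all genes tested and a median of -0.024. The libraries of WT cells also differed from each other in these genes: 18 of 30 members were at least 1.5-fold higher in WT replicate 1 than in WT replicate 2, against 9.35% of all genes tested, and 1 was at least 1.5-fold lower, against 6.99%. In the fit without WT replicate 1, the members' median was 0.060 on the log2 scale, against -0.0045 over all genes. Values below 0 were 14 of 30 members there, against 50.5% of all genes. Without GFI1-KO replicate 2 the members' median was -0.015, against -0.10 over all genes, with 15 of 30 below 0, against 55.1%. At an unadjusted p of 0.05, 6 members were lower in GFI1-KO, against 3.54% of all genes, and 0 were higher, against 5.81%. DESeq2 called 0 members, against 0.255% of all genes higher and 0.0351% lower, but gave no adjusted p for 8 of the 30 (GDF15, BBC3, PHLDA3, PLK3, POLH, PMAIP1, SPATA18 and EDA2R), which it could not call. The test of limma-voom called 0, against 0.967% higher and 0.193% lower. The newer dispersion of edgeR also gave 0 members, against 0.431% higher and 0.0791% lower, as did the replicate block, against 2.09% higher and 0.782% lower.

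**Figure D1:**
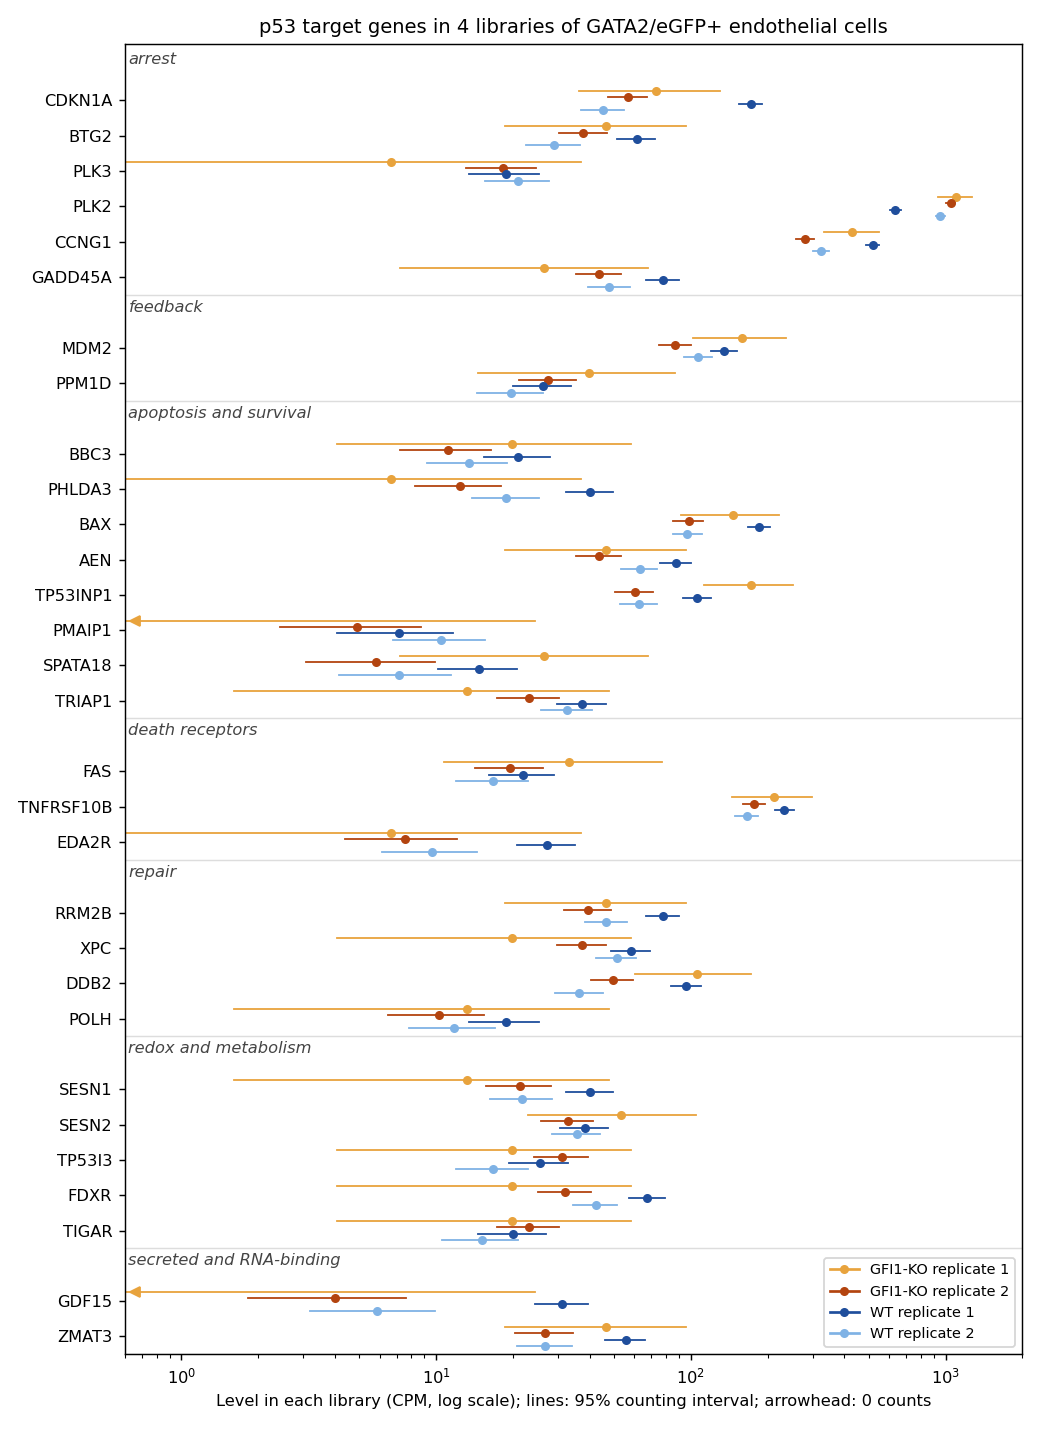
Level of each of the 30 p53 target genes in each library, in CPM on a log scale, grouped by role; points are single libraries, lines are 95% counting intervals, and an arrowhead marks 0 counts. For most genes WT replicate 1 (dark blue) lies to the right of WT replicate 2 and of GFI1-KO replicate 2, as for CDKN1A at 171 CPM, while PLK2 lies the other way, at 635 CPM in WT replicate 1.

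The cell cycle arrest genes carried the clearest example. CDKN1A, which encodes the cyclin-dependent kinase inhibitor p21 and is a canonical p53 target (chromosome 6, 36676460 to 36687339, plus strand, GRCh38), had 11 and 127 counts in GFI1-KO libraries 1 and 2, and 384 and 108 counts in WT libraries 1 and 2. These are 72.9 CPM (interval 36.4 to 130) and 56.5 CPM (47.1 to 67.3) in GFI1-KO, against 171 CPM (155 to 190) and 45.3 CPM (37.2 to 54.7) in WT. WT replicate 1 stood above the other 3 libraries, whose intervals overlapped, and the GFI1-KO values lay between the WT values. The log2 fold change of GFI1-KO over WT was -0.86 (SE 0.46, edgeR adjusted p = 0.635). Without WT replicate 1 it was 0.43 (adjusted p = 1.00), and without WT replicate 2 it was -1.49 (adjusted p = 0.0263). With GFI1-KO replicate 1, the shallow library, left out, the value was -0.93 (adjusted p = 0.0348). Its direction was opposite in the fits that kept 1 or the other WT library.

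CCNG1, which encodes cyclin G1, a regulator of MDM2 phosphorylation, was at 431 and 280 CPM in GFI1-KO libraries 1 and 2, against 517 and 324 CPM in WT libraries 1 and 2. The groups overlapped, and its ratio of WT replicate 1 over WT replicate 2 was 1.60 (1.46 to 1.75). BTG2, an antiproliferative gene, was at 46.4 and 37.8 CPM in GFI1-KO, against 61.2 and 28.96 CPM in WT, with a ratio between the WT libraries of 2.11 (1.57 to 2.86). GADD45A, a damage-inducible growth arrest gene, was at 26.5 and 43.6 CPM in GFI1-KO, below 77.7 and 47.8 CPM in WT; its log2 fold change was -0.61 (SE 0.31, adjusted p = 0.588).

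The polo-like kinase genes did not share this order. PLK2, the most abundant member, had 165 and 2350 counts in GFI1-KO, against 1421 and 2270 in WT. That is 1093 and 1046 CPM in GFI1-KO libraries 1 and 2, against 635 and 953 CPM in WT libraries 1 and 2, so that here WT replicate 1 was the lowest. Its log2 fold change was 0.43 (SE 0.23, adjusted p = 0.635), and its ratio of WT replicate 1 over WT replicate 2 was 0.666 (0.623 to 0.712). It was the member at least 1.5-fold lower in WT replicate 1. PLK3 was at 6.62 and 18.2 CPM in GFI1-KO, against 18.8 and 20.98 CPM in WT, on 1 count in GFI1-KO replicate 1. Of the 6 arrest genes, 4 were at least 1.5-fold higher in WT replicate 1 than in WT replicate 2, against 9.35% of all genes.

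The negative feedback genes differed less. MDM2 (chromosome 12, 68808176 to 68850686, plus strand), whose RefSeq window held the element printed above, was at 159 and 86.8 CPM in GFI1-KO libraries 1 and 2, against 135 and 107 CPM in WT libraries 1 and 2. Its GFI1-KO libraries enclosed both WT values; the log2 fold change was -0.20 (SE 0.29, adjusted p = 0.937), and the ratio between the WT libraries was 1.27 (1.067 to 1.501). PPM1D, which encodes the phosphatase WIP1 that dephosphorylates p53 and its kinases, was at 39.7 and 27.6 CPM in GFI1-KO, above 26.3 and 19.7 CPM in WT. Its log2 fold change of 0.36 (SE 0.36, adjusted p = 0.885) did not pass, and 6 counts stand behind the value in GFI1-KO replicate 1.

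Among the genes of apoptosis and survival, BAX, the pore-forming effector of mitochondrial apoptosis (chromosome 19, 48954815 to 48961798, plus strand), had 22 and 220 counts in GFI1-KO and 414 and 231 in WT. This is 146 and 97.9 CPM in GFI1-KO libraries 1 and 2, against 185 and 96.9 CPM in WT libraries 1 and 2. GFI1-KO replicate 2 and WT replicate 2 had almost the same level, with a ratio of 1.01 (0.836 to 1.22), while WT replicate 1 was 1.91 times WT replicate 2 (1.62 to 2.25). The BH3-only genes, whose proteins bind and block the survival members of the BCL2 family, were low. BBC3 (PUMA) was at 19.9 and 11.1 CPM in GFI1-KO, against 20.99 and 13.4 CPM in WT. PMAIP1 (NOXA) had 0 and 11 counts in GFI1-KO and 16 and 25 counts in WT; its log2 fold change of -0.97 (SE 0.62, adjusted p = 0.739) did not pass, and it was lower, not higher, in WT replicate 1 than in WT replicate 2 (ratio 0.681, 0.340 to 1.33).

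PHLDA3, which encodes an inhibitor of AKT, had 1 and 28 counts in GFI1-KO and 90 and 45 counts in WT. Both GFI1-KO values, 6.62 and 12.5 CPM, lay below both WT values, 40.2 and 18.9 CPM; its log2 fold change was -1.31 (SE 0.47, unadjusted p = 0.0117, adjusted p = 0.276, edgeR). AEN, a nuclease gene of apoptotic cells, was at 46.4 and 43.6 CPM in GFI1-KO, below 87.1 and 62.9 CPM in WT (log2 fold change -0.76, SE 0.28, adjusted p = 0.311). TP53INP1, a gene of stress-induced autophagy and apoptosis, was at 172 and 60.1 CPM in GFI1-KO, against 106 and 62.5 CPM in WT, so that GFI1-KO replicate 1 was the highest library. SPATA18, a gene of mitochondrial quality control, was at 26.5 and 5.79 CPM in GFI1-KO, against 14.7 and 7.13 CPM in WT, on 4 counts in GFI1-KO replicate 1. TRIAP1, which encodes a small inhibitor of apoptosis, was at 13.2 and 23.1 CPM in GFI1-KO, below 37.5 and 32.7 CPM in WT (log2 fold change -0.69, SE 0.35, adjusted p = 0.588). Of these 8 genes, 5 were at least 1.5-fold higher in WT replicate 1 than in WT replicate 2, against 9.35% of all genes. They were PHLDA3, SPATA18, BAX, TP53INP1 and BBC3, and the interval of the BBC3 ratio included 1 (0.977 to 2.53).

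The death receptor genes ranged widely. EDA2R, a receptor of the tumour necrosis factor family for ectodysplasin A2 (chromosome X, 66595637 to 66639298, minus strand), had 1 and 17 counts in GFI1-KO and 61 and 23 counts in WT. That is 6.62 and 7.57 CPM in GFI1-KO, below 27.2 and 9.65 CPM in WT; its log2 fold change was -1.29 (SE 0.57, unadjusted p = 0.0372, adjusted p = 0.479, edgeR). WT replicate 1 was 2.82 times WT replicate 2 (1.72 to 4.78), and without WT replicate 1 the log2 fold change was -0.38 (adjusted p = 1.00). FAS, whose ligand triggers apoptosis, was at 33.1 and 19.6 CPM in GFI1-KO, against 21.9 and 16.8 CPM in WT. TNFRSF10B, the TRAIL receptor DR5, was at 212 and 178 CPM in GFI1-KO, against 233 and 165 CPM in WT, and its groups overlapped.

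Of the 4 repair genes, 3 were at least 1.5-fold higher in WT replicate 1 than in WT replicate 2, against 9.35% of all genes. The counting interval of that ratio lay wholly above 1 for DDB2 and RRM2B. It included 1 for XPC (1.13, 0.879 to 1.46) and POLH (1.60, 0.966 to 2.67). DDB2, the damage sensor of nucleotide excision repair (chromosome 11, 47214465 to 47239240, plus strand), had 16 and 111 counts in GFI1-KO and 214 and 87 counts in WT. These are 106 CPM (60.6 to 172) and 49.4 CPM (40.6 to 59.5) in GFI1-KO, against 95.6 CPM (83.2 to 109) and 36.5 CPM (29.2 to 45.0) in WT. GFI1-KO replicate 1 and WT replicate 1 were both high and the other libraries of both genotypes both low, so the groups overlapped (log2 fold change -0.13, SE 0.41, adjusted p = 0.980). Without WT replicate 1 the value was 0.82 (adjusted p = 1.00). XPC, the other damage sensor of this pathway, was at 19.9 and 37.4 CPM in GFI1-KO, below 58.1 and 51.2 CPM in WT; its log2 fold change was -0.65 (SE 0.29, unadjusted p = 0.0404, adjusted p = 0.498, edgeR). RRM2B, the p53-induced ribonucleotide reductase subunit, was at 46.4 and 39.6 CPM in GFI1-KO, below 77.7 and 46.6 CPM in WT. POLH, the translesion polymerase eta, was at 13.2 and 10.2 CPM in GFI1-KO, against 18.8 and 11.8 CPM in WT.

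In redox and metabolic genes the directions were mixed. FDXR, the mitochondrial ferredoxin reductase (chromosome 17, 74862497 to 74873031, minus strand), was at 19.9 and 32.0 CPM in GFI1-KO, below 67.4 and 42.4 CPM in WT; its log2 fold change was -0.85 (SE 0.33, unadjusted p = 0.0180, adjusted p = 0.335, edgeR). SESN1, a sestrin that restrains mTORC1, was at 13.2 and 21.4 CPM in GFI1-KO, against 40.2 and 21.8 CPM in WT. Its relative SESN2 was at 52.99 and 32.9 CPM in GFI1-KO, against 38.4 and 35.7 CPM in WT, with a ratio between the WT libraries of 1.08 (0.788 to 1.47). TP53I3, a quinone oxidoreductase gene, was at 19.9 and 31.2 CPM in GFI1-KO, against 25.5 and 16.8 CPM in WT. Its GFI1-KO replicate 2 was 1.86 times WT replicate 2 (1.24 to 2.81), and its log2 fold change was the largest positive one among the members, 0.48 (SE 0.37, adjusted p = 0.819). TIGAR, a bisphosphatase that lowers glycolytic flux, was at 19.9 and 23.1 CPM in GFI1-KO, against 20.1 and 15.1 CPM in WT.

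GDF15, a secreted stress cytokine (chromosome 19, 18374731 to 18389176, plus strand), had the largest ratio between the WT libraries among the members. It had 0 and 9 counts in GFI1-KO libraries 1 and 2, and 70 and 14 counts in WT libraries 1 and 2. The 0 in GFI1-KO replicate 1 has an interval of up to 24.4 CPM, and GFI1-KO replicate 2 was at 4.01 CPM (1.83 to 7.60). WT libraries 1 and 2 were at 31.3 CPM (24.4 to 39.5) and 5.87 CPM (3.21 to 9.86). WT replicate 1 exceeded WT replicate 2 by 5.32-fold (2.97 to 10.2), and the intervals of GFI1-KO replicate 2 and WT replicate 2 overlapped. The log2 fold change was -2.30 (SE 0.80, unadjusted p = 0.0102, adjusted p = 0.254, edgeR). It passed without a low-count filter (adjusted p = 0.00612), where it was 1 member called lower, against 0.571% of all genes called lower and 1.39% called higher. It also passed in the fit without WT replicate 2 (0.0167) and in that without GFI1-KO replicate 1 (0.0044). Without WT replicate 1 the value was -0.74 (adjusted p = 1.00). ZMAT3, an RNA-binding zinc-finger gene that regulates splicing, was at 46.4 and 26.7 CPM in GFI1-KO, against 55.4 and 26.9 CPM in WT.

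Ordered by level per kilobase of exon, so that genes of unequal length can be compared, PLK2 led with a mean of 224 CPM per kb in GFI1-KO and 166 CPM per kb in WT. CCNG1 followed at 115 and 136 CPM per kb in GFI1-KO and WT, then BAX at 47.1 and 54.5. TNFRSF10B was at 37.8 and 38.6, and CDKN1A at 21.2 and 35.5 CPM per kb. The WT mean of CDKN1A joined 56.2 CPM per kb in WT replicate 1 and 14.9 in WT replicate 2. In WT replicate 2, GADD45A at 23.1 and TRIAP1 at 22.7 CPM per kb stood above it. In WT, SPATA18 at 2.21 CPM per kb and PMAIP1 at 3.95 CPM per kb were the lowest members. In GFI1-KO the lowest means were those of GDF15 at 0.960 and PMAIP1 at 1.10 CPM per kb. SPATA18 had a mean of 3.27 CPM per kb in GFI1-KO. That mean joined 5.36 in GFI1-KO replicate 1, on 4 counts, and 1.17 in GFI1-KO replicate 2. All 30 members summed to 2915 and 2368 CPM in GFI1-KO libraries 1 and 2, against 2950 and 2353 CPM in WT libraries 1 and 2, sums of which PLK2 made up a large part. Apart from PLK2, the 29 members summed to 1822 CPM (1613 to 2050) and 1322 CPM (1275 to 1371) in GFI1-KO libraries 1 and 2, against 2316 CPM (2253 to 2380) and 1401 CPM (1354 to 1449) in WT libraries 1 and 2. Without PLK2 the lowest sum was that of GFI1-KO replicate 2, and with PLK2 that of WT replicate 2.

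Set directly against each other, the WT libraries differed over the list as a whole. The ratio of WT replicate 1 over WT replicate 2 was above 1 for 27 of 30 members, against 50.3% of all genes tested, with a median of 1.59 for the members and 1.00 for all genes. For 18 members the exact 95% counting interval of the ratio lay wholly above 1, against 12.4% of all genes. For 1 it lay wholly below 1, against 13.2%. These 18 are not the same 18 that were at least 1.5-fold higher. The intervals of BBC3, TP53I3 and POLH included 1 at ratios of 1.56, 1.52 and 1.60. Those of MDM2, TNFRSF10B and AEN lay above 1 at ratios of 1.27, 1.41 and 1.38. The 8 members at least 2-fold higher were GDF15, CDKN1A, EDA2R, DDB2, PHLDA3, BTG2, SPATA18 and ZMAT3, and 2.93% of all genes reached that limit. In the ranking of all 11380 genes by this ratio, GDF15 was 22nd, CDKN1A 44th and EDA2R 97th. With 1 library on each side these ratios compare those libraries and have no test. WT replicate 1 was the highest of the 3 deep libraries for 24 of 30 members, against 34.5% of all genes. Just inside the 1.5-fold limit was TP53I3 at 1.52, and just outside was TNFRSF10B at 1.41.

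**Figure D2:**
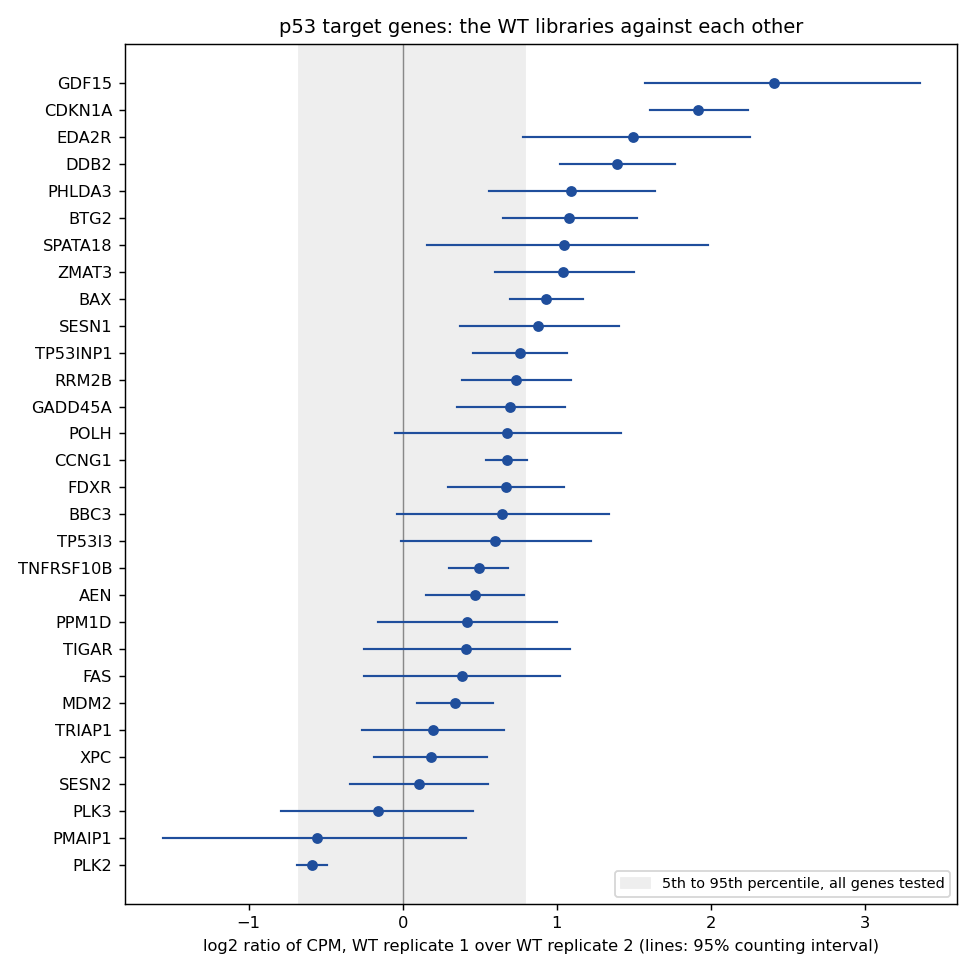
log2 ratio of CPM, WT replicate 1 over WT replicate 2, for each member, with exact 95% counting intervals; the grey band spans the 5th to 95th percentile of all genes tested (-0.67 to 0.80). From GDF15 down to SESN1, 10 members lie to the right of the band, and PLK2 at the bottom lies inside its left edge.

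GFI1-KO replicate 2, the deep knockout library, resembled WT replicate 2 more than WT replicate 1 in these genes. Its ratio over WT replicate 1 had a median of 0.554, with 21 of 30 members at least 1.5-fold lower and 1 at least 1.5-fold higher, against 10.8% of all genes tested in each direction. Its ratio over WT replicate 2 had a median of 0.892, with 2 of 30 members at least 1.5-fold lower, against 8.63%, and 2 at least 1.5-fold higher, against 11.3%. The lower members were PMAIP1 (0.467, 0.207 to 0.983) and PHLDA3 (0.66, 0.396 to 1.08), and the higher members were TP53I3 and TIGAR (1.53, 0.983 to 2.41). The median distance on the log2 scale, taken without sign, was 0.85 from WT replicate 1 and 0.30 from WT replicate 2, against 0.67 between the WT libraries. Over all genes tested the same distances were 0.28, 0.26 and 0.25. For GFI1-KO replicate 1, the shallow library, the members' median ratio was 0.769 over WT replicate 1 and 1.23 over WT replicate 2. Over all genes those medians were 0.927 and 0.937. These comparisons share libraries and are given side by side only.

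**Figure D3:**
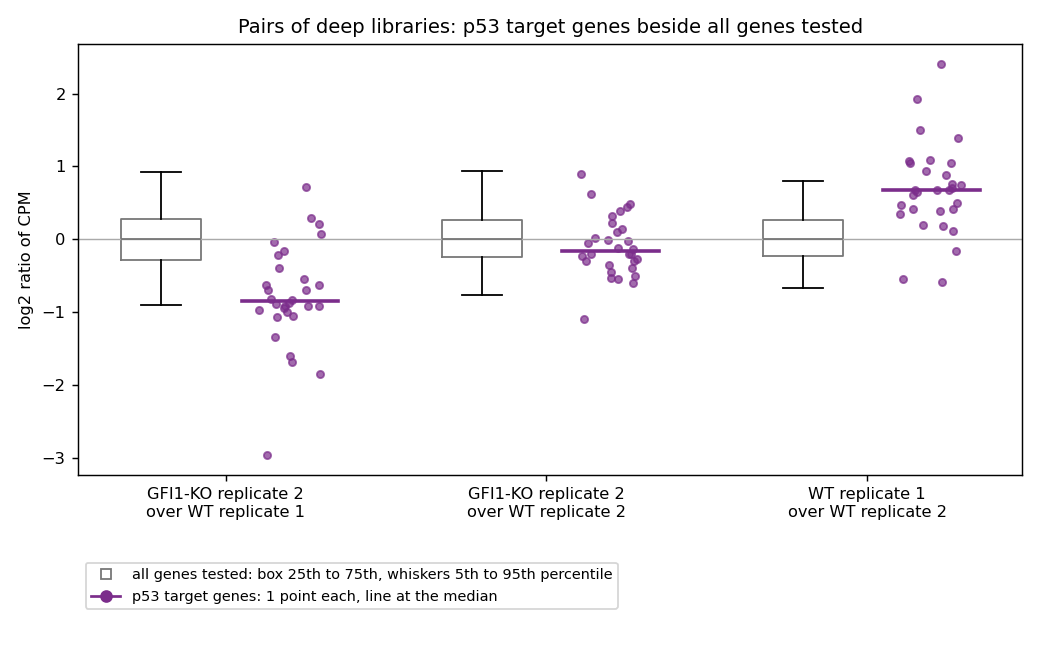
log2 ratio of CPM for the 30 members (purple points, line at the median) beside all genes tested (box at the 25th to 75th percentile, whiskers at the 5th and 95th) in the 3 pairs of deep libraries. The members' medians are -0.85, -0.17 and 0.67 from left to right, while those of all genes lie within 0.01 of 0.

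The GFI1-KO libraries could be compared with each other only at the depth of the shallow one. The counting interval of GFI1-KO replicate 1 over GFI1-KO replicate 2 lay wholly above 1 for 5 of 30 members, against 4.96% of all genes, and wholly below 1 for 0 of 30, against 5.54%. The 5 were TP53INP1 (2.87, 1.81 to 4.39), DDB2 (2.15, 1.19 to 3.64), MDM2 (1.83, 1.15 to 2.81), CCNG1 (1.54, 1.17 to 1.99) and SPATA18 (4.58, 1.09 to 14.8). For CDKN1A the ratio was 1.29 with an interval of 0.628 to 2.39, so that a difference between the knockout libraries was not detectable at this depth.

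Between genotypes, both GFI1-KO libraries lay below both WT libraries for 12 of 30 members, against 22.7% of all genes tested, and above both for 2, against 18.6%. The 12 were GDF15, PHLDA3, EDA2R, PMAIP1, FDXR, AEN, TRIAP1, XPC, GADD45A, RRM2B, SESN1 and PLK3, and the 2 were PLK2 and PPM1D. Of the 12, GFI1-KO replicate 1 had 0 to 3 counts for all but AEN, GADD45A and RRM2B, which had 7, 4 and 7. The 6 members with an unadjusted p under 0.05 were GDF15, PHLDA3, AEN, FDXR, EDA2R and XPC. Leaving out WT replicate 2 or GFI1-KO replicate 1 gave 2 calls each among the members, CDKN1A and GDF15, both lower in GFI1-KO, against 0.172% and 0.896% of all genes called lower in those fits and 0.662% and 2.29% called higher. Leaving out WT replicate 1 gave 0 members, against 0.43% of all genes called higher and 0.103% lower, and leaving out GFI1-KO replicate 2 gave 0, against 1.6% higher and 0.759% lower.

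**Figure D4:**
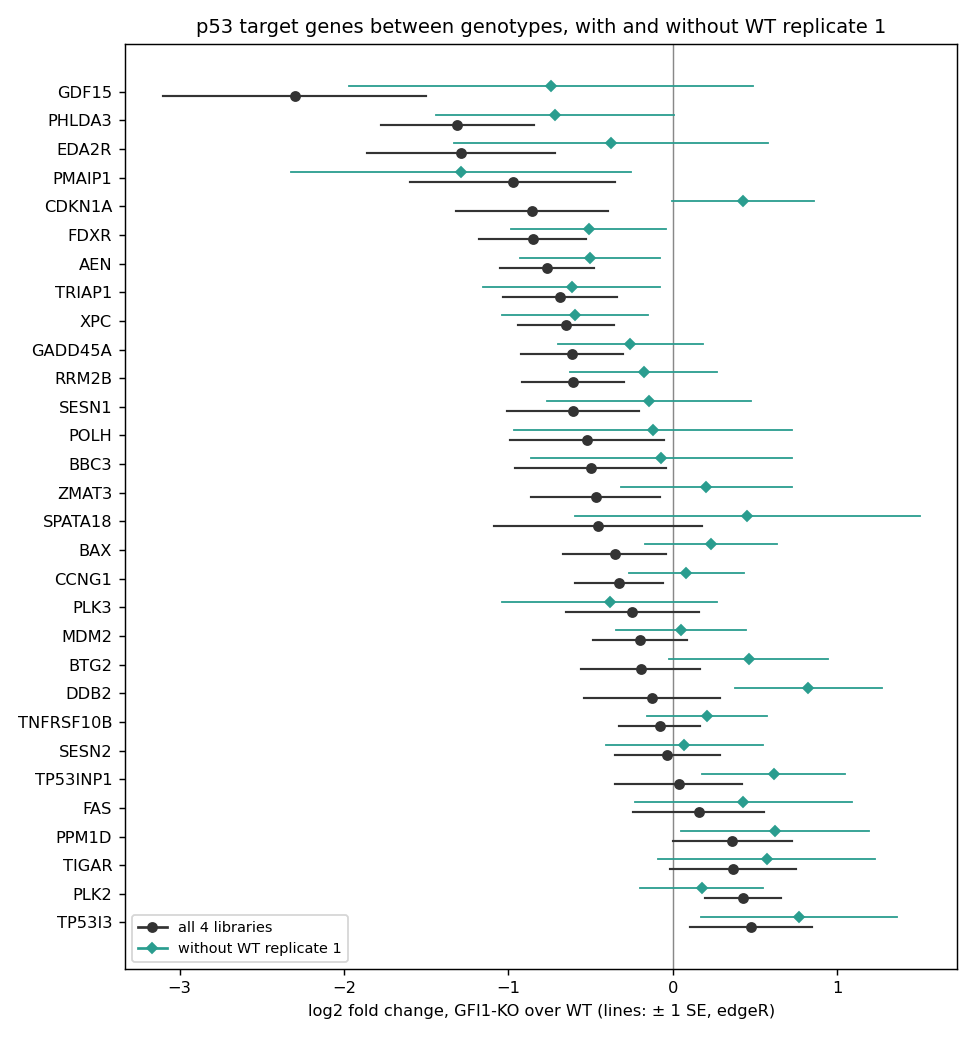
log2 fold change of GFI1-KO over WT for each member with all 4 libraries (black) and without WT replicate 1 (green); lines are ± 1 SE from edgeR. CDKN1A moves from the left of 0 to the right (-0.86 with all libraries, 0.43 without WT replicate 1), and GDF15 moves from -2.30 to -0.74.

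Of 25 genes that act on p53, 22 were tested and 0 were called, against 0.773% of all genes called higher and 0.185% lower. The median log2 fold change of GFI1-KO over WT was -0.020. Of these 22 regulators, 0 were at least 1.5-fold higher in WT replicate 1 than in WT replicate 2, against 9.35% of all genes. At least 1.5-fold lower were 3 of 22, against 6.99%. The smallest adjusted p belonged to PPP1R13B, which encodes the p53-binding protein ASPP1 (log2 fold change 0.53, adjusted p = 0.501), to the p53 kinase gene HIPK2 (0.76, adjusted p = 0.603) and to the p53 inhibitor gene MDM4 (0.44, adjusted p = 0.810).

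Of 50 further p53 targets, 42 were tested, 2 were called higher and 0 lower in GFI1-KO, against 0.773% and 0.185% of all genes, and the median log2 fold change was 0.037. KITLG, the gene for the KIT ligand stem cell factor, rose to 52.99 and 60.5 CPM in GFI1-KO, against 18.8 and 13.4 CPM in WT (log2 fold change 1.87, SE 0.33, edgeR adjusted p = 0.0101). It did not pass with DESeq2 (adjusted p = 0.156) or in the fits that dropped WT replicate 2 (0.0623) or GFI1-KO replicate 2 (0.138). PRDM1, the gene for the repressor BLIMP1, rose to 113 and 103 CPM in GFI1-KO, against 43.3 and 51.6 CPM in WT (1.15, SE 0.25, edgeR adjusted p = 0.0409). It no longer passed in the fit that dropped WT replicate 1 (adjusted p = 0.594), in that without WT replicate 2 (0.185) and in that without GFI1-KO replicate 2 (0.0991), nor with DESeq2 (0.383), upper-quartile scaling (0.0634), the newer dispersion (0.0704) and a mean of at least 5 CPM (0.0658). PLAU, the urokinase gene, DRAM1, an autophagy gene, and PRKAB1, an AMP-activated kinase subunit gene, had log2 fold changes of 1.02, -0.90 and -0.63 (adjusted p = 0.191, 0.328 and 0.484).

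Of these 42, 9 were at least 1.5-fold higher in WT replicate 1 than in WT replicate 2 (21.4%, against 9.35% of all genes). Chosen after their values were seen, they were BCL6, CSF1, RPS27L, PLAU, DRAM1, FBXO22, CYFIP2, EPHA2 and TNFRSF10C. The counting intervals of BCL6 (2.13, 0.804 to 6.23) and TNFRSF10C (1.54, 0.811 to 2.98) included 1, and those of the others lay wholly above 1. RPS27L, a ribosomal protein-like gene induced by p53, was at 72.9 and 41.0 CPM in GFI1-KO, against 83.1 and 39.9 CPM in WT, a ratio between the WT libraries of 2.08 (1.62 to 2.70). DRAM1 was at 72.9 and 51.2 CPM in GFI1-KO, against 137 and 69.2 CPM in WT, a ratio of 1.98 (1.63 to 2.41). FBXO22, a ubiquitin ligase subunit gene, was at 33.1 and 39.2 CPM in GFI1-KO, against 81.3 and 44.5 CPM in WT, a ratio of 1.83 (1.43 to 2.34).

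The remaining lists held 0 calls between genotypes, against 0.773% of all genes called higher and 0.185% lower. The 12 tested BCL2 family genes had a median log2 fold change of 0.040; BCL2 itself had 4 and 30 counts in GFI1-KO and 5 and 12 in WT (log2 fold change 2.03, SE 0.59, adjusted p = 0.134), with BMF and BCL2L11 next at 0.63 and -0.70 (adjusted p = 0.603 and 0.641). The 15 tested cell cycle inhibitors and G1 regulators had a median of 0.0033. Their cyclin gene CCND2 was at 424 and 57.0 CPM in the GFI1-KO libraries, against 60.3 and 48.7 CPM in WT (1.64, SE 0.58, adjusted p = 0.281), and CCND3 and CDK6 had -0.67 and 0.70 (adjusted p = 0.415 and 0.424). The 20 genes of G2 and mitosis that p21 represses through the DREAM complex had a median of 0.0075, with AURKA, CCNB2 and TOP2A at -0.36, -0.25 and 0.18 (adjusted p = 0.811, 0.868 and 0.909). None of these 20 was 1.5-fold higher or lower in WT replicate 1 than in WT replicate 2, and their median ratio was 0.960. The 60 tested genes of damage signalling and repair had a median of -0.055, with GADD45B, XRCC6 and HUS1 at 1.01, -0.50 and 0.66 (adjusted p = 0.558, 0.603 and 0.698), and their median ratio of WT replicate 1 over WT replicate 2 was 0.868. Of these 60, 4 were at least 1.5-fold higher in WT replicate 1, against 9.35% of all genes, and 7 at least 1.5-fold lower, against 6.99%. At an unadjusted p of 0.05 in either direction, 1 of the BCL2 family and 3 of the cell cycle inhibitors and G1 regulators passed. Of the G2 and mitosis genes 0 passed, of the damage genes 0, of the p53 regulators 1 and of the 42 further p53 targets 6. Over all genes the shares were 5.81% higher and 3.54% lower.

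Other features of the libraries moved between the WT replicates as well. Of 8 tested mesenchymal and smooth muscle markers, 4 were at least 1.5-fold higher in WT replicate 1 than in WT replicate 2, against 9.35% of all genes, among them COL3A1 with a ratio of 2.41 (2.22 to 2.63). The smooth muscle gene TAGLN was at least 1.5-fold lower, with a ratio of 0.5999 (0.473 to 0.758), against 6.99% of all genes. The summed level of the 9 listed was 1080 and 1259 CPM in GFI1-KO, against 1684 and 1060 CPM in WT. All 9 had counts in at least 1 library. The 6 epithelial markers summed to 238 and 545 CPM in GFI1-KO, against 656 and 453 CPM in WT, and the 6 leukocyte markers to 212 and 259 CPM in GFI1-KO, against 264 and 275 CPM in WT. The 6 pluripotency markers summed to 79.5 and 108 CPM in GFI1-KO, against 144 and 144 CPM in WT, and the 8 erythroid markers to 0 and 0.445 CPM in GFI1-KO, against 4.47 and 2.94 CPM in WT. The 13 protein-coding genes of the mitochondrial genome took 4.25% and 5.15% of counts in GFI1-KO, against 5.36% and 5.80% in WT. The part of these differences in the p53 target levels was not tested. The endothelial markers had a median ratio between the WT libraries of 1.05.

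The annotation gives 12 of the 30 members exon bases shared with another gene. TIGAR shares 1711 bases with AC008012.1 on the same strand, XPC shares 1140 with the antisense gene AC093495.1, MDM2 shares 785 with an antisense gene, PHLDA3 shares 598 with AC096677.2 and FAS shares 380 with ACTA2 on the opposite strand. Whether counting used strand is not given, and values of genes with overlaps on the opposite strand are uncertain to that extent. Overlaps on the same strand leave values uncertain under either setting. Those are the overlaps given for TIGAR and PHLDA3. On their own strands, MDM2 also shares 439 bases with a pseudogene and BBC3 shares 76 with the microRNA gene MIR3191. CDKN1A shares 146 bases with the antisense transcript DINOL, and GDF15, DDB2, BAX, CCNG1 and EDA2R share none.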

How the data were processed

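RNA-seq of 4 libraries was analysed, 2 of GFI1-KO and 2 of WT cells, grouped by sample title. The deposited values are raw counts per gene. Libraries came from Trizol RNA and an Illumina TruSeq kit, per the labels' protocols. Per the submitters' processing notes, which give no roles, the tools were HTSeq 0.6.0, HISAT2 2.0.4, DESeq 1.18.1 and SAMtools 1.3.1, and the builds hg38 and GRCh38. No source used here gives the annotation, the strand setting or read filters. Of 19912 identifiers, 19902 matched GENCODE release 29 (GRCh38), which gave symbols, positions and exon lengths.

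The test was edgeR 4.0.16 (R 4.3.3), with filterByExpr (minimum count 10, minimum total 15), TMM scaling, glmQLFit and glmQLFTest with genotype as the term, and Benjamini-Hochberg adjustment over 11380 genes. A prior count of 0.125 went into log2 fold changes, given as GFI1-KO over WT; SE is the unshrunken value divided by the square root of F. Ratios of 2 libraries carry exact conditional 95% intervals. The scripts were tested on simulated counts. The alternatives were 2 scalings, 2 filters, DESeq2 1.42.0, limma-voom (limma 3.58.1), the newer dispersion of edgeR, replicate number as a block, and each library left out; other scalings and a 2-fold limit for the ratio between the WT libraries were chosen after seeing the data. All 30 members found were named, and from the 6 other p53 and damage lists every called gene and up to 3 further genes with the smallest adjusted p. The members and lists were chosen with earlier results of these data known.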

Additional observations from a re-analysis of the deposited data

How the results depend on the processing

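Over all genes, 109 were called, and 58 with upper-quartile scaling, 305 without a low-count filter, 50 with a mean of at least 5 CPM, 33 with DESeq2, 58 with the newer dispersion and 327 with the replicate block; leaving out a library gave 62 to 373. Calls among the members were 0, and 1 (GDF15) without a low-count filter; leaving out a library gave 0 to 2. The members' median log2 fold change of -0.46 ran from -0.50 to -0.21 across the alternatives that kept all libraries. It ran from -0.71 to 0.060 when a library was left out. Without GFI1-KO replicate 2 it was -0.015, against -0.10 over all genes. The count of 18 members at least 1.5-fold higher in WT replicate 1 was 18 under 3 other scalings, and 8 at a 2-fold limit.

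Directions of uncalled members turned as follows. DESeq2 gave 0.078 for SESN2, 0.10 for DDB2 and 0.15 for SPATA18. The replicate block gave 0.048 for SESN2, 0.15 for BTG2, 0.013 for TNFRSF10B, 0.33 for DDB2 and 0.086 for SPATA18. TP53INP1 was at -0.20 with limma-voom and -0.012 with the newer dispersion. Leaving out a library, log2 fold changes ran from -1.49 to 0.43 for CDKN1A, -0.48 to 0.41 for MDM2, -0.17 to 0.53 for SESN2, -0.72 to 0.22 for BBC3, -0.075 to 0.77 for TP53I3, -0.85 to 0.20 for ZMAT3, -0.62 to 0.46 for BTG2, -0.28 to 0.21 for TNFRSF10B, -0.70 to 0.23 for BAX, -0.55 to 0.82 for DDB2, -0.48 to 1.04 for TP53INP1, -0.59 to 0.082 for CCNG1 and -0.90 to 1.29 for SPATA18. The cause was not tested.

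Both genotypes carry replicate numbers 1 and 2. As no label says that a number marks a shared culture, pairing stayed out of the test used. Deviations of the libraries numbered 1 from their group means correlated at 0.116 over genes. With the replicate block 327 genes and 0 members were called, and the members' median was -0.21. A fit that leaves 1 library in a genotype assumes that it varies like the other group. The shallow GFI1-KO replicate 1 had a median of 6 counts over tested genes, which limits what its values can show.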
